A study of Rattus norvegicus with 12 samples.

Results

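The genes described here encode subunits of the transcription factor NF-κB, inhibitors and other regulators of it, and 1 adaptor that feeds signals into it. They are Nfkb1, Nfkb2, Rel, Relb, Nfkbia, Nfkbie, Nfkbiz, Tnfaip3, Ier3 and Tifa. They were taken as a list of names, and for each the row of the expression table that the array's annotation pairs with that gene alone was used. This gave 9 of the 10 genes, out of 18166 genes with a row in all. They lie on chromosome 2 (Nfkb1 and Tifa), 1 (Nfkb2 and Relb), 14 (Rel), 6 (Nfkbia), 9 (Nfkbie), 11 (Nfkbiz) and 20 (Ier3) of the RefSeq assembly GRCr8. Tnfaip3, which encodes the inhibitor A20, had no such row and is not analysed here. The cells were primary astrocytes from the cerebral cortex of 1-day-old Sprague-Dawley rats, kept for 2 days in serum-free medium meant to remove microglia and meningeal cells. There were 4 groups of 3 arrays. The group siSHP_IFNg_GW received siRNA against SHP, interferon-γ and a compound that the labels name only GW. The group siCon_IFNg_GW received control siRNA, interferon-γ and GW. The group siCon_IFNg received control siRNA and interferon-γ, and siCon received control siRNA alone. Cells of all 4 groups were transfected with an siRNA, and treatment lasted 3 h. No group had GW without interferon-γ or SHP siRNA without GW. Titles number the arrays of each group 1, 2 and 3. No label says that the numbers were separate cultures, so p-values reflect only the array-to-array spread, part or all of which may be technical.

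NF-κB is a family of dimeric transcription factors that waits in the cytoplasm bound to inhibitors of the IκB family. Signals from cytokine and pattern-recognition receptors activate a kinase complex that marks IκB for degradation, and the freed dimers enter the nucleus and switch on inflammatory genes. Among those genes are several NF-κB subunits and the inhibitors themselves, so the pathway limits its own activity. In astrocytes and microglia it is known for driving the production of cytokines and chemokines.

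Promoter windows of these genes are shown first because the binding motif of NF-κB recurs in them. RefSeq windows of 300 bases, 250 before and 50 after 1 start point per gene (assembly GRCr8), were given for 8 of the 10 genes, all but Relb and Ier3. This start point need not be the outer end of the annotated gene. It lay within 1 base of it for Nfkbie and Nfkbiz, but inside the gene by 14 bases for Tnfaip3, 235 for Nfkbia, 386 for Rel, 435 for Nfkb1, 2364 for Nfkb2 and 5162 for Tifa. The κB consensus, searched on both strands, occurred in 8 of these 8 windows, 7 of them of genes with a measured level, and in 4.18% of all 33469 windows. The interferon-γ activated site, spelled TTCNNNGAA, occurred in 0 of the 8 and in 8.87% of all windows. The AP-1 site, spelled TGANTCA, occurred in 3 of the 8 (Nfkb2, Nfkbie and Tnfaip3) and in 7.33% of all windows. No match of 1 motif overlapped a match of another, but the 3 κB matches of Rel overlapped each other. A match is a run of letters and no measurement of binding. The κB matches of the 7 measured genes are given here with 10 bases on either side, 5′ to 3′ on the strand of the gene, with the κB letters in capitals.
Nfkb1: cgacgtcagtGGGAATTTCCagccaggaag
Nfkb2: tggtattttcGGGACTTTCCtaagagcact
Rel: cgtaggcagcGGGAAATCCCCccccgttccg
Nfkbia: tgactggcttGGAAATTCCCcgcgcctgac
Nfkbie: gcagcaaacaGGGGGATTCCggaggggcgg
Nfkbiz: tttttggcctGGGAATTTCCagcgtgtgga
Tifa: ctggctctgcGGGGCTTTCCgccccgcgag
Nfkb1, Nfkbiz and, read on the opposite strand, Nfkbia held the same letters, GGGAATTTCC. The letters of Nfkb2, Rel, Nfkbie and Tifa each differed from these and from each other.

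The whole windows of Nfkbia and Nfkbiz, both of the IκB family, and of Tifa are given for context. The level of Tifa took a course unlike that of the other measured genes. The window of Nfkbia is chr6:78597023-78597322 on the minus strand, that of Nfkbiz chr11:58251471-58251770 on the plus strand and that of Tifa chr2:218932636-218932935 on the plus strand (GRCr8). Capitals again mark the κB letters.
Nfkbia: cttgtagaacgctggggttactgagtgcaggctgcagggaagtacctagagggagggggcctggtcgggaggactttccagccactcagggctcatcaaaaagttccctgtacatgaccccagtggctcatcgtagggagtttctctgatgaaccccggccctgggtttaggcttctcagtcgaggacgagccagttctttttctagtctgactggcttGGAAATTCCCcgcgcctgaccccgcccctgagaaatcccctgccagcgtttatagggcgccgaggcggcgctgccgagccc
Nfkbiz: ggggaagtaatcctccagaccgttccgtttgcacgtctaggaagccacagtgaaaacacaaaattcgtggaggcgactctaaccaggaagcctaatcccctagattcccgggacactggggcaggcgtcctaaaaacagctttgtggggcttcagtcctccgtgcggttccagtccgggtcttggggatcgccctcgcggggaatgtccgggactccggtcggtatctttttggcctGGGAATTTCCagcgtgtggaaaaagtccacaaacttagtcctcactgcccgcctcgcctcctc
Tifa: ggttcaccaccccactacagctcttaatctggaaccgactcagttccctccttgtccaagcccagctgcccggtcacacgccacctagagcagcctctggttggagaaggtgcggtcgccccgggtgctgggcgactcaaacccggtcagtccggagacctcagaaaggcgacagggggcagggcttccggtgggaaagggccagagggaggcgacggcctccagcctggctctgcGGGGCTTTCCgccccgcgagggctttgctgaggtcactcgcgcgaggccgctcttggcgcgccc
Counted from the first base of the window, the κB letters begin at base 220 for Nfkbia, base 238 for Nfkbiz and base 237 for Tifa.

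Levels are log2 expression values, so a difference of 1 is a doubling. All 9 genes lay above 5.34 on all 12 arrays, which is the 95th percentile of the mean levels of 1344 olfactory and vomeronasal receptor genes taken as background. Nr0b2, the gene that encodes SHP, lay at 4.59 to 5.12 and above this background on 0 of 12 arrays, so its level checks neither the siRNA nor the labels. Of 14 astrocyte markers 11 had a row, with a median level of 10.41 to 11.01 per array, against 6.55 for all genes. Of 18 microglia markers 17 had a row, and 0 of them were at background on any array. In these bulk samples fewer cells of a type and less RNA per cell cannot be told apart. Title number 1 separated from the other title numbers. The 9 meningeal and vascular markers with a row had a median of 5.69 to 5.99 on the arrays numbered 1, against 7.57 to 8.50 on the others. Over all groups, 39.2% of genes differed between number 1 and numbers 2 and 3 (limma, adjusted p under 0.05). Of the 9 measured genes 5 did (Ier3, Nfkbia, Nfkbie, Nfkbiz and Rel), all of them higher in number 1. In the same test 12 of the 17 microglia markers were higher and 2 lower in number 1. Of the 11 astrocyte markers 2 were higher and 6 lower, and of the 9 meningeal and vascular markers 7 were lower. The part of these markers in the differences of the measured genes was not tested. Results are therefore given over all 12 arrays and again without number 1.

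**Figure D1:**
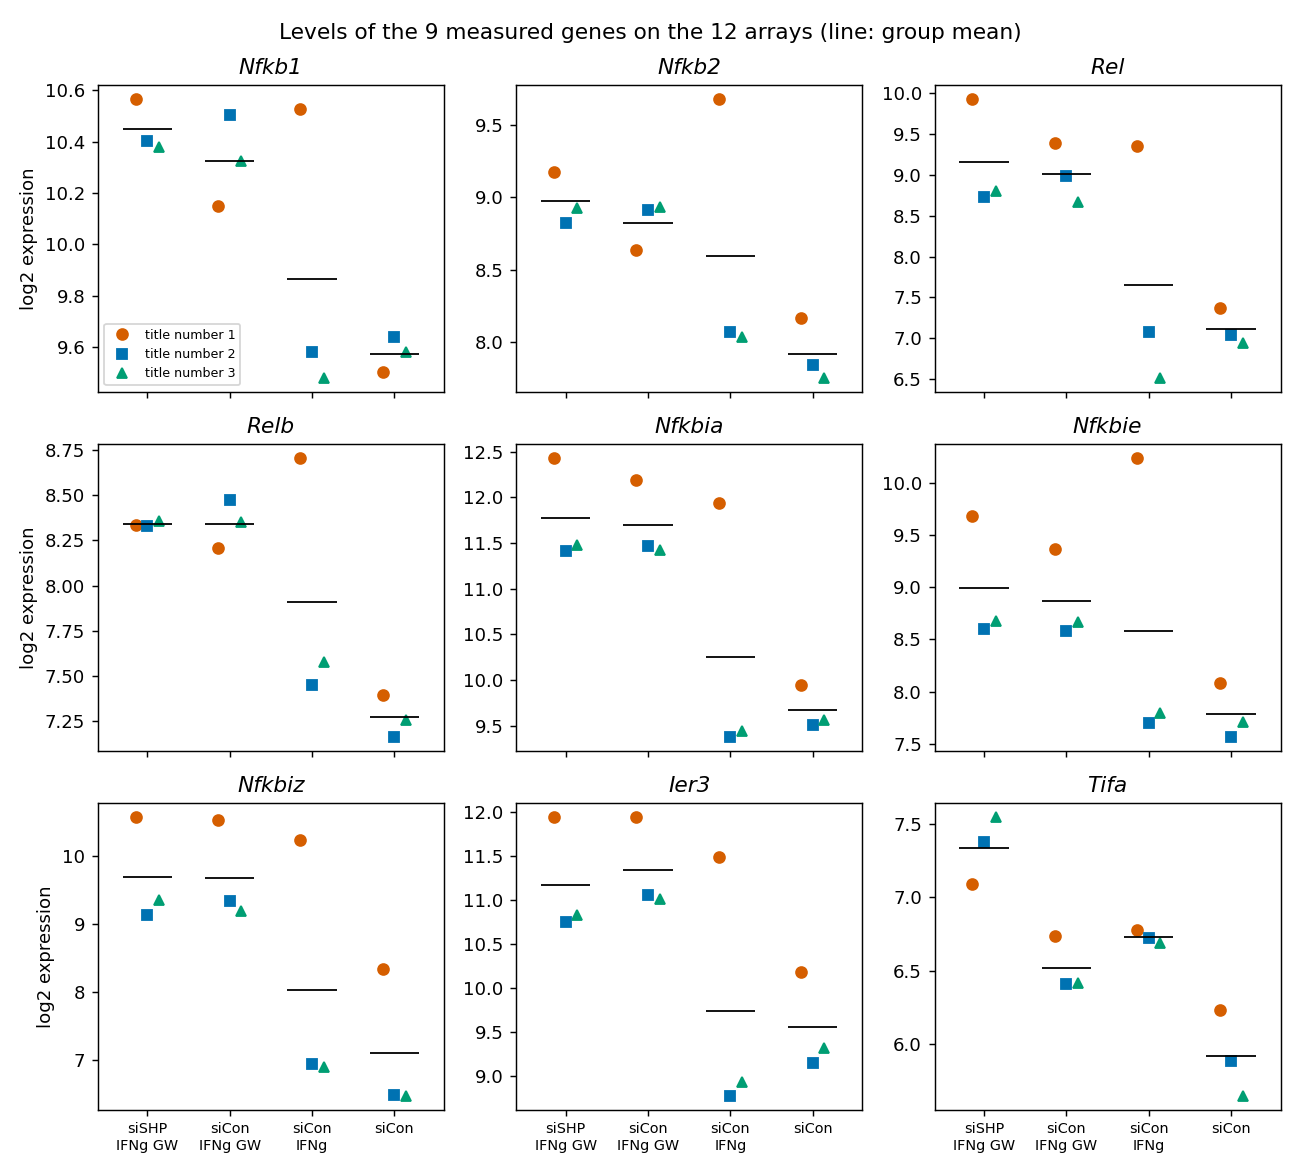
Log2 expression (y axis) of the 9 measured genes in the 4 groups (x axis), with 1 point per array marked by its title number. For every gene but Tifa the siCon_IFNg array of number 1 lies far above the siCon_IFNg arrays of numbers 2 and 3, for Nfkbia at 11.94 against 9.38 and 9.44.

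Nfkb1 encodes p105, the precursor of the p50 subunit. Its level on the arrays numbered 1, 2 and 3 was 10.57, 10.40 and 10.38 in siSHP_IFNg_GW, 10.15, 10.50 and 10.32 in siCon_IFNg_GW, 10.53, 9.58 and 9.48 in siCon_IFNg, and 9.50, 9.64 and 9.58 in siCon. Every array with GW was above every siCon array, while siCon_IFNg held 1 high array and 2 low ones. Nfkb2 encodes p100, which is processed to p52 in the non-canonical pathway. It lay at 9.17, 8.82 and 8.92 in siSHP_IFNg_GW, 8.63, 8.91 and 8.93 in siCon_IFNg_GW, 9.68, 8.07 and 8.03 in siCon_IFNg, and 8.17, 7.84 and 7.75 in siCon. The highest value of Nfkb2 was the siCon_IFNg array of number 1.

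Rel encodes c-Rel, a subunit that activates transcription. Its levels were 9.93, 8.73 and 8.81 in siSHP_IFNg_GW, 9.39, 8.98 and 8.67 in siCon_IFNg_GW, 9.35, 7.08 and 6.52 in siCon_IFNg, and 7.37, 7.04 and 6.95 in siCon. The siCon_IFNg array of number 3 was the lowest of the 12 for this gene. Relb encodes RelB, a usual partner of p52. Its levels were 8.34, 8.33 and 8.36 in siSHP_IFNg_GW, 8.21, 8.48 and 8.35 in siCon_IFNg_GW, 8.71, 7.45 and 7.57 in siCon_IFNg, and 7.39, 7.16 and 7.25 in siCon. Among the 4 subunit genes only Relb had all its siCon_IFNg arrays above all its siCon arrays.

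Nfkbia encodes IκBα, the fast feedback inhibitor that NF-κB itself induces. It lay at 12.43, 11.41 and 11.47 in siSHP_IFNg_GW, 12.19, 11.47 and 11.42 in siCon_IFNg_GW, 11.94, 9.38 and 9.44 in siCon_IFNg, and 9.95, 9.50 and 9.56 in siCon. In numbers 2 and 3 the siCon_IFNg value was the lowest of the number, and in number 1 it was near the arrays with GW. Nfkbie encodes IκBε, another cytoplasmic inhibitor. It lay at 9.69, 8.60 and 8.68 in siSHP_IFNg_GW, 9.37, 8.58 and 8.67 in siCon_IFNg_GW, 10.24, 7.70 and 7.80 in siCon_IFNg, and 8.08, 7.56 and 7.71 in siCon. As for Nfkb2, its highest value was the siCon_IFNg array of number 1.

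Nfkbiz encodes IκBζ, a nuclear member of the IκB family that helps to induce a later set of inflammatory genes. Its levels were 10.58, 9.14 and 9.35 in siSHP_IFNg_GW, 10.53, 9.33 and 9.19 in siCon_IFNg_GW, 10.24, 6.94 and 6.90 in siCon_IFNg, and 8.33, 6.48 and 6.47 in siCon. The array numbered 1 was the highest of every group. Ier3 encodes a short-lived early-response protein induced through NF-κB. Its levels were 11.93, 10.74 and 10.82 in siSHP_IFNg_GW, 11.94, 11.05 and 11.00 in siCon_IFNg_GW, 11.48, 8.77 and 8.93 in siCon_IFNg, and 10.18, 9.15 and 9.32 in siCon. Its siCon_IFNg arrays of numbers 2 and 3 were its lowest.

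Tifa encodes an adaptor that links the kinase ALPK1 to TRAF6 and so to NF-κB. Its levels were 7.09, 7.38 and 7.55 in siSHP_IFNg_GW, 6.74, 6.41 and 6.42 in siCon_IFNg_GW, 6.78, 6.73 and 6.69 in siCon_IFNg, and 6.23, 5.89 and 5.65 in siCon. Each siSHP_IFNg_GW array was above all arrays of the other groups, and each siCon array was below them. The group means followed the order siSHP_IFNg_GW, 7.34 ± 0.23, siCon_IFNg, 6.73 ± 0.05, siCon_IFNg_GW, 6.52 ± 0.19, and siCon, 5.92 ± 0.29 (SD, n = 3). Its siCon_IFNg and siCon_IFNg_GW arrays overlapped and did not differ beyond their spread (limma, adjusted p = 0.742).

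Number 1 also differed within each group. The array numbered 1 was compared with the other 2 of its group, its own spread being assumed like theirs. In siSHP_IFNg_GW 5 of the 9 genes differed, where 20.9% of all genes did, and in siCon_IFNg_GW 4 of 9, where 23.6% did. In siCon_IFNg 8 of 9 differed, all but Tifa, where 23.8% of all genes did, and in siCon 6 of 9, where 23.1% did. Each of these differences was higher in number 1 (limma, adjusted p under 0.05). Nfkbiz in siCon, with no interferon-γ, was higher in number 1 by 1.86 ± 0.12 (SE, adjusted p = 6.02e-05).

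The comparison of siCon_IFNg with siCon asks what interferon-γ changed. Tifa was higher in siCon_IFNg by 0.55, 0.84 and 1.04 in numbers 1, 2 and 3. The other 8 genes were higher by 1.02 (Nfkb1) to 2.16 (Nfkbie) in number 1, with 1.98 for Rel and 1.99 for Nfkbia. In numbers 2 and 3 the same 8 genes differed by -0.43 (Rel, number 3) to 0.46 (Nfkbiz, number 2), and Nfkb1, Nfkbia and Ier3 were below 0 in both numbers. Over all 12 arrays 0 of the 9 genes passed the limma test at an adjusted p under 0.05, where 0.121% of all genes passed. At an unadjusted p under 0.05 Relb and Tifa passed, 2 of 9, where 5.5% of all genes did. These 2 were also the ones whose groups did not overlap, as 9.3% of all genes did not. Tifa averaged 6.73 in siCon_IFNg and 5.92 in siCon, a change of 0.81 ± 0.16 (SE, adjusted p = 0.145). With the title number as a block it was the 1 gene of the 9 that passed (adjusted p = 0.049), where 0.936% of all genes passed.

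The difference between number 1 and the other numbers in this change was tested itself, as an interaction term in limma. It passed for 8 of the 9 genes, where 2.43% of all genes passed. It was largest for Rel at 2.17 ± 0.31 (adjusted p = 0.0116) and smallest among the 8 for Relb at 1.01 ± 0.15 (adjusted p = 0.0143). For Tifa it was -0.39 ± 0.18 (adjusted p = 0.433).

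Without number 1, Tifa and Nfkbiz rose with interferon-γ, 2 of 9, where 4.71% of all genes passed. Tifa rose by 0.94 ± 0.10 (adjusted p = 0.00155) and Nfkbiz by 0.45 ± 0.10 (adjusted p = 0.0437). With the block added to this smaller set of arrays Tifa alone passed (adjusted p = 0.00494), where 4.02% of all genes did. Nfkbia differed by -0.13, with a 95% interval from -0.31 to 0.05, and Ier3 by -0.38 (adjusted p = 0.0722), and neither passed. The median change of the 9 genes was 0.64 over all arrays and 0.11 without number 1, against -0.03 and -0.04 for all genes.

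**Figure D2:**
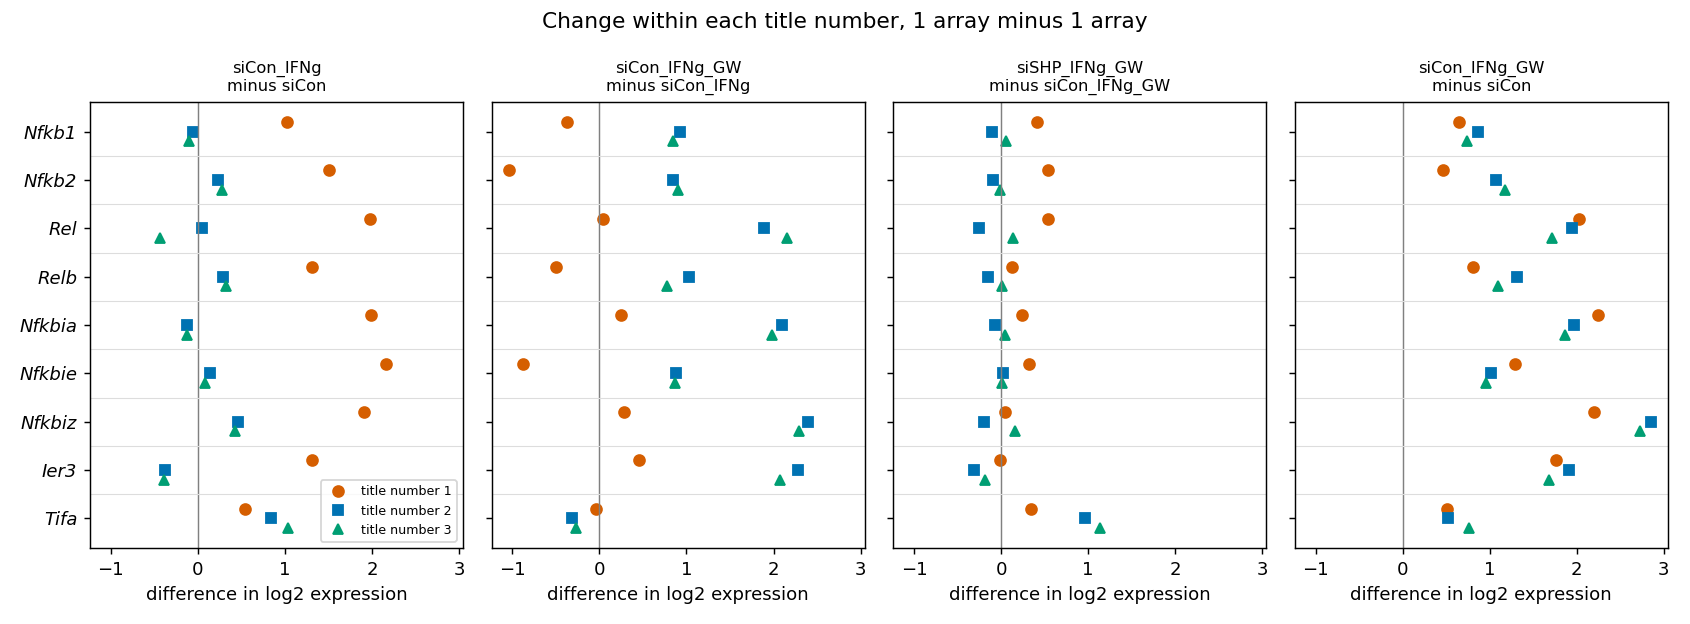
Log2 change of each measured gene (x axis) within each title number, 1 array minus 1 array, for the 4 comparisons of groups (panels). In number 1 the 8 genes other than Tifa were higher with interferon-γ by 1.02 to 2.16 and in numbers 2 and 3 they were higher once GW was added, by 0.78 to 2.40.

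Adding GW to interferon-γ is tested by siCon_IFNg_GW against siCon_IFNg. The 8 genes other than Tifa were higher in siCon_IFNg_GW in numbers 2 and 3, by 0.78 (Relb, number 3) to 2.40 (Nfkbiz, number 2), and in number 1 the difference ran from -1.04 (Nfkb2) to 0.46 (Ier3). Over all 12 arrays 0 of the 9 passed the limma test, where 0.886% of all genes passed, and 3 (Ier3, Nfkbia and Rel) had an unadjusted p under 0.05, where 11.4% of all genes did. For 0 of the 9 did the groups not overlap, as 15.3% of all genes did not. Nfkbia averaged 11.70 in siCon_IFNg_GW and 10.25 in siCon_IFNg, a difference of 1.45 ± 0.58 (SE, adjusted p = 0.357).

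Without number 1, 8 of the 9 genes rose with GW, where 11.5% of all genes passed. Nfkbiz rose by 2.34 ± 0.10, a 5.07-fold change (adjusted p = 6.94e-06), Ier3 by 2.18 ± 0.10 (adjusted p = 8.57e-06) and Nfkbia by 2.04 ± 0.08, a 4.12-fold change (adjusted p = 4.52e-06). Rel rose by 2.02 ± 0.18, while Nfkb1, Nfkb2, Relb and Nfkbie rose by 0.87 to 0.90. Tifa, at -0.30 ± 0.10, did not pass (adjusted p = 0.117). With the title number as a block and all arrays kept, 3 genes passed (Ier3, Nfkbia and Nfkbiz), where 6.55% of all genes passed. Leaving out only the siCon_IFNg array of number 1 gave 6 of 9, where 2.27% of all genes passed.

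**Figure D3:**
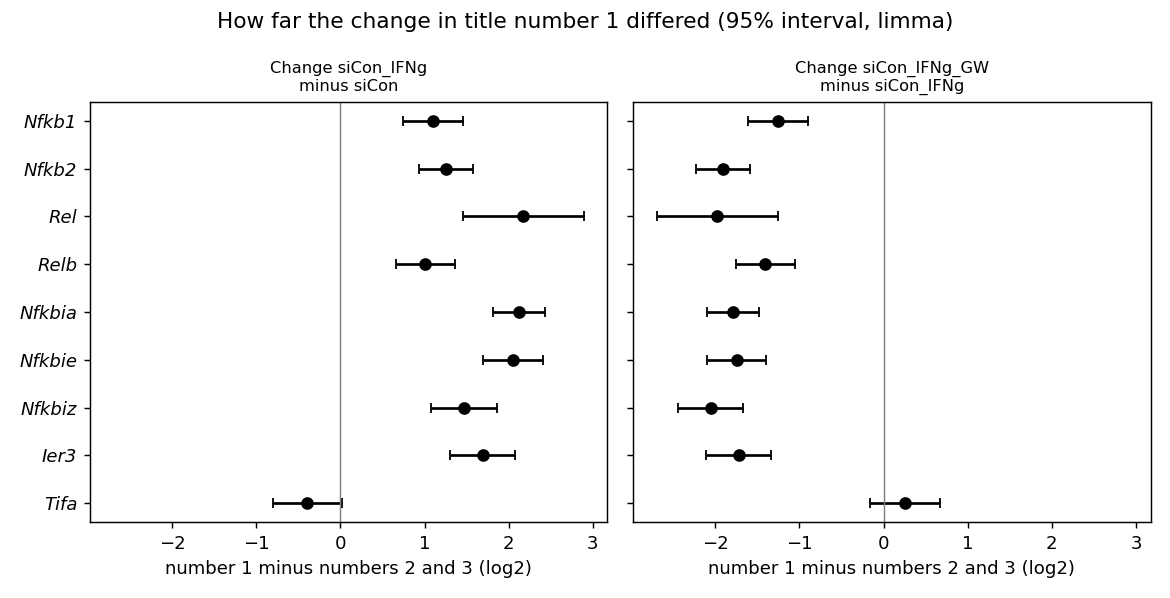
Difference between title number 1 and numbers 2 and 3 in the log2 change of each measured gene, with its 95% interval (x axis), for interferon-γ (left) and for GW added to it (right). The 8 genes other than Tifa lie at 1.01 to 2.17 for interferon-γ and at -2.06 to -1.26 for GW added to it.

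The difference between number 1 and the other numbers in the GW change passed for the same 8 genes, where 3.02% of all genes passed. It was lowest for Nfkbiz at -2.06 ± 0.17 (adjusted p = 0.00125), and for Tifa it was 0.25 ± 0.18 (adjusted p = 0.512). Both comparisons use the siCon_IFNg arrays, so a high siCon_IFNg array raises the change in the first and lowers it in the second. The summed level of the microglia markers was lower with GW. Its log2 was 12.77 to 13.06 in siCon_IFNg_GW, against 13.26 to 13.59 in siCon_IFNg. Over all 12 arrays 0 of the 17 passed the limma test, where 0.886% of all genes passed. Without number 1, 10 of the 17 fell and 1 rose (limma), where 11.5% of all genes passed. The part of these markers in the gene changes was not tested.

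The comparison of siCon_IFNg_GW with siCon asks what interferon-γ and GW did together, and here the direction was the same in all 3 numbers. All 9 genes were higher in every siCon_IFNg_GW array than in any siCon array, which 18.2% of all genes matched in either direction. By number the change was 2.20, 2.85 and 2.72 for Nfkbiz, 2.24, 1.97 and 1.86 for Nfkbia, 2.03, 1.94 and 1.72 for Rel, and 1.76, 1.91 and 1.69 for Ier3. Nfkbiz averaged 9.69 ± 0.74 in siCon_IFNg_GW and 7.09 ± 1.07 in siCon (SD, n = 3), a 6.03-fold difference. Over all arrays 0 of the 9 passed the limma test, where 0.864% of all genes passed, with adjusted p from 0.104 (Relb) to 0.541 (Nfkbie). At an unadjusted p under 0.05, 8 of the 9 passed, all but Nfkbie, where 11.3% of all genes did.

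With the title number as a block, 5 of the 9 genes rose (Nfkbiz, Nfkbia, Rel, Ier3 and Relb), where 6.84% of all genes passed. Nfkbiz rose by 2.59 ± 0.36 (adjusted p = 0.00362) and Relb by 1.08 ± 0.24 (adjusted p = 0.0279). Without number 1 all 9 rose, where 5.66% of all genes passed. Nfkbiz rose by 2.79 ± 0.10 (adjusted p = 1.26e-05), Nfkbia by 1.91 ± 0.08 (adjusted p = 1.33e-05) and Tifa by 0.65 ± 0.10 (adjusted p = 0.0125). The median change of the 9 was 1.09 over all arrays and 1.21 without number 1, against -0.02 for all genes in both. The log2 summed level of the microglia markers was 12.77 to 13.06 in siCon_IFNg_GW, against 13.23 to 13.94 in siCon. Over all arrays 0 of the 17 markers had a change above 0, and their median change was -0.55. In limma 1 of the 17 fell over all arrays, where 0.864% of all genes passed. With the block 14 fell, where 6.84% of all genes passed, and without number 1, 7 fell, where 5.66% did. The part of these markers in the gene changes was not tested.

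The comparison of siSHP_IFNg_GW with siCon_IFNg_GW asks what SHP siRNA changed under interferon-γ and GW. The siRNA's own target, Nr0b2, was at 5.12, 4.94 and 4.81 in siSHP_IFNg_GW, against 4.70, 4.78 and 4.91 in siCon_IFNg_GW, all under background. Among the 9 genes Tifa was the one that stood out. It was higher in siSHP_IFNg_GW by 0.35, 0.97 and 1.13 in numbers 1, 2 and 3, a mean difference of 0.82 ± 0.16 (SE) or 1.76-fold. Over all arrays 0 of the 9 genes passed, and 0% of all genes did. Tifa alone of the 9 had an unadjusted p under 0.05 (0.000425), where 2.29% of all genes had, and its groups alone did not overlap, as 6.47% of all genes did not. With the block 0 of 9 passed, and 0% of all genes did.

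Without number 1, Tifa rose with SHP siRNA by 1.05 ± 0.10, a 2.07-fold change (adjusted p = 0.00179), and it was the 1 of 9 that passed, where 1.47% of all genes passed. The other 8 genes lay between -0.25 (Ier3) and 0.02 (Nfkbie). For Nfkbia the 95% interval ran from -0.19 to 0.17, for Nfkb1 from -0.23 to 0.19 and for Rel from -0.47 to 0.36. The difference between number 1 and the other numbers passed for 0 of the 9 genes at an adjusted p under 0.05 in limma, where 0.721% of all genes passed. At an unadjusted p under 0.05, 3 of the 9 passed (Nfkb1, Nfkb2 and Tifa), where 12.2% of all genes did. For Tifa it was -0.70 ± 0.18 (adjusted p = 0.163). In siSHP_IFNg_GW against siCon_IFNg, a comparison added after the values were seen, Tifa differed by 0.61 ± 0.16 (adjusted p = 0.221). None of the 9 passed there over all arrays, where 0.303% of all genes passed, and without number 1 all 9 rose, where 6.21% did.

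**Figure D4:**
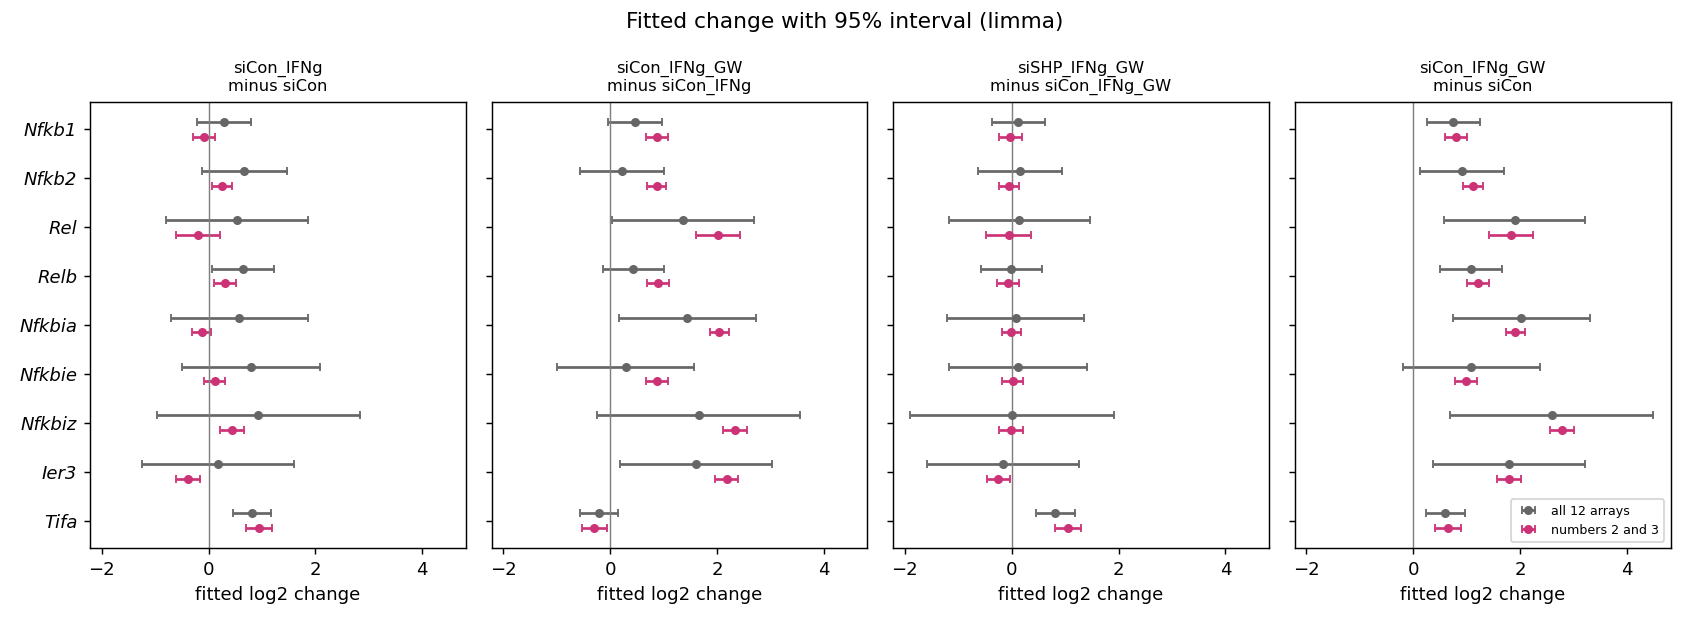
Fitted log2 change of each measured gene with its 95% interval (x axis), over all 12 arrays and without title number 1, for the 4 comparisons of groups. With SHP siRNA Tifa lies at 0.82 over all arrays and 1.05 without number 1, while the other 8 genes lie between -0.25 and 0.02 without number 1.

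The rest of the pathway was taken from a list of 53 other NF-κB genes, of which 48 had a row, and from a list of 36 NF-κB target genes, of which 34 had one. Over all arrays (limma, adjusted p under 0.05) the pathway list had 1 gene higher and 0 lower with interferon-γ, 1 higher and 1 lower with GW, 0 with SHP siRNA, and 1 higher with interferon-γ and GW together. The target list had 2 higher, 0, 0 and 3 higher in those comparisons, where 0.121%, 0.886%, 0% and 0.864% of all genes passed. Their median changes with interferon-γ and GW together were 0.15 for the pathway list and 0.74 for the target list, against 1.09 for the 9 genes. Without number 1, 15 pathway genes and 18 target genes rose in that comparison and 0 fell, where 602 of all 18166 genes rose and 426 fell (5.66% in either direction). With interferon-γ alone 17 pathway genes rose and 1 fell, and 13 target genes rose and 2 fell, where 554 of all genes rose and 302 fell (4.71%). With GW added 13 pathway genes rose and 8 fell, and 14 target genes rose and 4 fell, where 1176 of all genes rose and 905 fell (11.5%). With SHP siRNA 6 pathway genes rose and 0 fell, and 4 target genes rose and 2 fell, where 246 of all genes rose and 21 fell (1.47%).

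Irf1, a transcription factor known to be induced by interferon-γ, lay at 12.04, 12.34 and 12.35 in siSHP_IFNg_GW, 11.73, 11.07 and 10.87 in siCon_IFNg_GW, 11.90, 11.70 and 11.73 in siCon_IFNg, and 9.30, 8.71 and 8.60 in siCon. It rose with interferon-γ by 2.91 ± 0.23 (limma adjusted p = 0.000706). Ccl2, a monocyte chemokine, rose with interferon-γ by 1.62 ± 0.21 (adjusted p = 0.025). Cd40, a receptor that signals to NF-κB, rose with interferon-γ by 1.27 ± 0.16 (adjusted p = 0.025) and fell when GW was added, by 0.81 ± 0.16 (adjusted p = 0.0484). With SHP siRNA Irf1 differed by 1.02 ± 0.23 and Cd40 by 0.69 ± 0.16 over all arrays, and neither passed. Without number 1, Irf1 rose with SHP siRNA by 1.37 ± 0.09 (limma adjusted p = 0.000231) and Cd40 by 0.81 ± 0.13 (adjusted p = 0.0235), as Tifa did. Ccl2, at 0.44 ± 0.09, did not pass there (adjusted p = 0.0742), and 1.47% of all genes passed. The rise of Irf1 with SHP siRNA was smaller in number 1, at 12.04 in siSHP_IFNg_GW against 11.73 in siCon_IFNg_GW. Its change in number 1 minus that in numbers 2 and 3 was -1.06 ± 0.16 (interaction term in limma).

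Tab2, which helps to activate the kinase TAK1, rose with GW by 0.61 ± 0.10 (limma adjusted p = 0.027). With interferon-γ alone Tab2 differed by -0.39 ± 0.10 (adjusted p = 0.383), and with interferon-γ and GW together by 0.22 ± 0.10 (adjusted p = 0.469). Without number 1 its change with interferon-γ alone was -0.50 ± 0.08 (adjusted p = 0.0103), where 4.71% of all genes passed. Map3k14, the kinase NIK of the non-canonical pathway, rose with interferon-γ and GW together by 1.34 ± 0.21 (adjusted p = 0.0169). Ptx3, a soluble pattern-recognition protein, rose by 2.47 ± 0.39 (adjusted p = 0.0188) in the same comparison.

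The likeness of patterns was measured as Pearson's r over 12 arrays after subtracting the mean of each title number. The arrays share these means, and r is given as a description. The 8 genes other than Tifa correlated with each other at 0.82 (Nfkb2 with Ier3) to 0.99 (Rel with Nfkbia), and Tifa with them at 0.50 to 0.67. Closest to the mean of the 9 genes were Rela, the gene of the p65 subunit, at 0.991, the cytokine gene Tnf and Rasgef1b at 0.983, Scaf4 at 0.982 and Ndel1 at 0.98. Among single genes the closest was Ndel1 for Nfkb1 (0.982), Acod1 for Nfkb2 (0.973), Tnf for Relb (0.975), Zc3h12c for Nfkbie (0.986), Junb for Nfkbiz (0.993), Baz1a for Ier3 (0.995) and Igf2bp2 for Tifa (0.963). Rela lay at 11.52, 10.83 and 10.75 in siSHP_IFNg_GW, 11.47, 10.81 and 10.73 in siCon_IFNg_GW, 11.49, 10.04 and 10.08 in siCon_IFNg, and 9.98 to 10.67 in siCon. Like the 8 genes it was high in the siCon_IFNg array of number 1 and near siCon in those of numbers 2 and 3.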

How the data were processed

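Total RNA of primary rat astrocytes was hybridised to 12 arrays, 3 per group, and groups were taken from the titles and sample descriptions. The authors deposited 1 table of log2 expression values with 36685 rows. The base of the logarithm was inferred from the range of 1.01 to 13.43, and the background correction and normalization are not given in the sources used here. Per the series text, 4 of the arrays come from an older series and were processed anew, without naming them. There were 0 columns of other samples. Rows were named through the platform annotation: 18511 had 1 gene, 575 several and 17599 none. Of the named rows 18394 matched RefSeq (GRCr8) by Entrez ID, and 0 symbols changed. For 291 genes with several rows the highest mean was kept, which left 18166 genes.

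All 4 groups were fitted in 1 limma 3.58.1 model (lmFit and eBayes, R 4.3.3) without a block, and p-values were adjusted by Benjamini-Hochberg over all genes. Arrays of the same title number deviated together from their group means (r from 0.63 to 0.77 in number 1, 0.48 to 0.58 in number 2 and 0.43 to 0.55 in number 3), and for this reason fits with the number as a block are given. The difference of number 2 minus number 3 was not shared between groups (r from -0.02 to 0.00), so the check shows that number 1 stood apart and does not show that numbers 2 and 3 pair the arrays. No label says what the numbers share. Changes were also tested by number (interaction terms), with the spread taken from numbers 2 and 3. Sequences were searched and figures drawn with Python 3.11.15, pandas 2.3.3, numpy 2.4.6 and matplotlib 3.10.9. Alternatives were the title number as a block, arrays left out, median centring, quantile normalization, a filter on dim genes, a trended robust prior, array weights and the mean of a gene's rows. The block without number 1 and the comparison of siSHP_IFNg_GW with siCon_IFNg were added after the values were seen. Named beyond the members are Nr0b2, up to 4 genes per list and comparison with the smallest p among those past the threshold, and the genes of the most alike pattern. The members and lists were chosen with earlier results of these data known. The number of arrays limits the precision.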

Additional observations from a re-analysis of the deposited data

Results flagged for a closer look

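For 8 of the 9 genes the change between groups differed between title number 1 and numbers 2 and 3, by an interaction term in limma adjusted over all genes. Number 1 supplied 1 array per group, so its own spread was assumed to be that of the other numbers. For interferon-γ (siCon_IFNg against siCon) the change in number 1 exceeded that in numbers 2 and 3 by 2.17 for Rel, 2.12 for Nfkbia, 2.05 for Nfkbie, 1.69 for Ier3, 1.47 for Nfkbiz, 1.26 for Nfkb2, 1.10 for Nfkb1 and 1.01 for Relb on the log2 scale. The adjusted p ran from 0.000445 (Nfkbia) to 0.0143 (Relb).

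For GW added to interferon-γ (siCon_IFNg_GW against siCon_IFNg) the change in number 1 minus that in numbers 2 and 3 was -2.06 for Nfkbiz, -1.98 for Rel, -1.91 for Nfkb2, -1.79 for Nfkbia, -1.75 for Nfkbie, -1.72 for Ier3, -1.41 for Relb and -1.26 for Nfkb1. The adjusted p ran from 0.000766 (Nfkb2) to 0.0165 (Rel). The siCon_IFNg array of number 1 enters both sets of differences. The series text does not say which arrays came from an older series, so a link to title number 1 was not tested.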

How the results depend on the processing

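With the title number as a replicate block, 1, 3, 0 and 5 of the 9 genes passed for interferon-γ, GW, SHP siRNA and interferon-γ with GW, against 0 in each without it. Of all 18166 genes 170, 1189, 0 and 1242 passed with the block, against 22, 161, 0 and 157 without it. With array weights the counts were 1, 6, 1 and 8 of the 9, where 414, 1307, 127 and 1282 of all genes passed, and the median change with interferon-γ and GW was 1.19. The block without number 1 gave 1, 8, 1 and 9, where 731, 1776, 231 and 779 of all genes passed, with a median of 1.21. For the difference between numbers in the SHP siRNA change, 1 gene passed with dim genes left out and 1 with a trended robust prior, where 2.93% and 2.72% of all genes passed. Leaving out arrays gave 0 to 2, 0 to 8, 0 to 1 and 0 to 9 genes, and medians of -0.04 to 0.95, 0.23 to 1.12, -0.23 to 0.32 and 1.02 to 1.24. Leaving out number 1 gave the upper counts, and there 856, 2081, 267 and 1028 of all 18166 genes passed. For interferon-γ, leaving out number 2 gave 0 of the 9 and 0 of all genes. In all, 27 of 208 such counts and medians moved past a set margin and 181 did not. For a median the margin was the SD of its values in the 3 title numbers, and for a count a fixed ratio. This margin was wide for interferon-γ. There the median was 0.64 over all arrays, 0.11 without number 1 and -0.04 without the siCon_IFNg array of number 1. Both shifts were within the margin. The cause of the shifts was not tested.

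None of the single-gene differences that changed sign had an adjusted p under 0.05. For interferon-γ, leaving out arrays gave -0.078 to 0.48 for Nfkb1, -0.32 to 1.10 for Rel, -0.27 to 1.02 for Nfkbia, -0.037 to 1.24 for Nfkbie, -0.18 to 1.55 for Nfkbiz and -0.70 to 0.66 for Ier3. With the block and no number 1 the values were -0.078 for Nfkb1, -0.19 for Rel, -0.13 for Nfkbia and -0.38 for Ier3, and with array weights Ier3 was at -0.18. For GW, leaving out arrays gave -0.10 to 0.87 for Nfkb2 and -0.15 to 1.12 for Nfkbie. For SHP siRNA it gave -0.02 to 0.24 for Nfkb1, -0.05 to 0.27 for Nfkb2, -0.25 to 0.35 for Rel, -0.073 to 0.068 for Relb, -0.26 to 0.32 for Nfkbia, -0.23 to 0.37 for Nfkbie, -0.44 to 0.43 for Nfkbiz and -0.55 to 0.14 for Ier3. The block without number 1 gave -0.023 for Nfkb1, -0.048 for Nfkb2, -0.056 for Rel, -0.008 for Nfkbia and -0.017 for Nfkbiz. Array weights gave -0.005 for Nfkb1, -0.012 for Nfkb2, -0.036 for Rel and -0.027 for Nfkbiz, and median centring gave 0.014 for Relb. In siSHP_IFNg_GW against siCon_IFNg, leaving out arrays gave -0.031 to 1.24 for Nfkbie, and 0 to 9 genes passed. The count of 9 came without number 1, where 1129 of all 18166 genes passed.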
